A study of Mus musculus with 21 samples.

Results

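CD4 T cells cultured with IL-12 and IL-21 were compared with CD4 T cells cultured with TGF-b and IL-6, using 8 of the 21 libraries of the series. Every library of either culture in which at least 7000 genes reached 1 TPM (the scaled share of a library's transcripts that belong to a gene) were taken, from both sort gates. This left 5 IL-12+IL-21 libraries (GFPpos replicates 1, 2 and 3, and GFPneg replicates 1 and 2) and 3 TGFb+IL-6 libraries (GFPpos replicate 1, and GFPneg replicates 1 and 2). Values for single libraries are given in that order throughout. The lowest library inside the limit had 7522 genes at 1 TPM or more, and the highest outside it had 5608. The comparison asks how a culture that favours Th1 cells differs from a culture that favours Th17 cells in this reporter system.

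In every group the starting cells were naive CD4 T cells, CD44low and CD25-, sorted from spleen and lymph nodes of Il23r wt/eGFP mice. These mice carry an IRES-eGFP reporter in 1 copy of Il23r that leaves that copy without function, so all cells compared had a single working Il23r allele. The cells were stimulated for 5 days with plate-bound antibodies to CD3 and CD28. IL-12 and IL-21 were each given at 20 ng/ml, TGF-b (human protein, per the labels) at 2 ng/ml, and IL-6 at 25 ng/ml. Cells were then sorted into eGFP-positive (GFPpos) and eGFP-negative (GFPneg) fractions, and full-length cDNA libraries were made by SMART-Seq2. The cultures differ in all of their cytokines and no cytokine-free culture was used here, so the share of each cytokine in a difference cannot be told apart. The sources used here do not give the ages of the mice. No label says that replicates came from separate animals or cultures. The p-values therefore reflect spread among the sequenced samples alone, part of which may be technical.

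IL-12 signals mainly through the transcription factor STAT4, and with T-bet (Tbx21) it drives the Th1 program, whose main product is interferon gamma. IL-6 signals through STAT3, and together with TGF-b and its SMAD proteins it induces the Th17 cytokines IL-17A and IL-17F. IL-21 also signals through STAT3, and interferon gamma acts back on T cells, where it raises a broad set of interferon-inducible and antigen presentation genes.

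The 8 libraries held 7522 to 9248 genes at 1 TPM or more, and an exact permutation test found no difference in that number between the cultures (two-sided p = 0.232). Transcripts of ribosomal protein genes took 36.2% to 42.7% of each IL-12+IL-21 library and 41.5% to 46.0% of each TGFb+IL-6 library, with means of 39.1% ± 3.23 (SD, n = 5) and 44.4% ± 2.55 (SD, n = 3) and an exact permutation p of 0.0714, where 0.0357 is the smallest this design allows. Of the 4 libraries left out, the one labelled TGFb+IL-6 GFPpos replicate 2 had 5608 such genes and 60.3% ribosomal protein transcripts. The other 3 had 190, 1157 and 1331 genes, and those labelled TGFb+IL-6 replicate 3 went against their label. The GFPpos library had Ifng at 989 TPM, Nkg7 at 539 TPM and Penk at 2477 TPM with Il17a and Il17f listed at 0, and the GFPneg library had Ifng at 3285 TPM with the same 2 genes listed at 0. All 13 T cell identity markers, Cd3e and Cd4 among them, were present in the 8 libraries. Pax5, Lyz2, Csf1r, Ncr1 and Klrb1c, defining genes of B cells, myeloid cells and natural killer cells, were listed at 0 in all 8. Other markers of other cell types were present. Cd8b1 was at 4.89 to 9.8 TPM in IL-12+IL-21 and at 6.15 to 17.5 TPM in TGFb+IL-6. In the same order Xcr1 was at 2.53 to 5.84 TPM and 2.9 to 7.16 TPM. Ly6g was at 2.43 to 10.9 TPM and 12.4 to 22.5 TPM, and Csf3r at 3.23 to 7.87 TPM and 6.28 to 6.61 TPM. Klrd1, Cd74 and Ebf1 are given below.

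Of 9029 genes tested with limma (TPM of at least 1 in at least 3 of the 8 libraries, sort gate as covariate, Benjamini-Hochberg adjusted p under 0.05), 1138 passed, which is 12.6%. They were 766 genes higher in IL-12+IL-21 (8.48% of those tested) and 372 lower (4.12%). All counts of list members given below are to be read beside these shares. A gene that passed is called below, and "rose" and "fell" mean higher and lower in IL-12+IL-21 than in TGFb+IL-6. Changes are differences of log2(TPM + 1), which understates the change of genes with low values. The libraries of the 2 cultures did not overlap for 17.9% of all genes tested, 13% with IL-12+IL-21 higher and 4.82% with it lower. Lack of overlap was also a condition for naming the 12 largest rises and 12 largest falls, so for those genes it is no separate result. An absolute log2 change of at least 3 was seen in 64 called genes, 40 of them higher and 24 lower. The median log2 change of all genes was 0.15. With median-ratio scaling, which brings that median to about 0, the split was 617 higher and 617 lower (6.83% each), so 50% of the calls were higher against 67.3% without it, and 596 of the 766 rises and 357 of the 372 falls were kept. The number of calls rests in part on the only TGFb+IL-6 GFPpos library: without it 554 genes passed, 387 higher and 167 lower. With TGFb+IL-6 GFPpos replicate 2 added 402 genes passed, and with all 12 libraries of both cultures, the sparse ones included, 64. In bulk samples such as these, fewer cells of a type and less RNA per cell cannot be told apart.

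**Figure D1:**
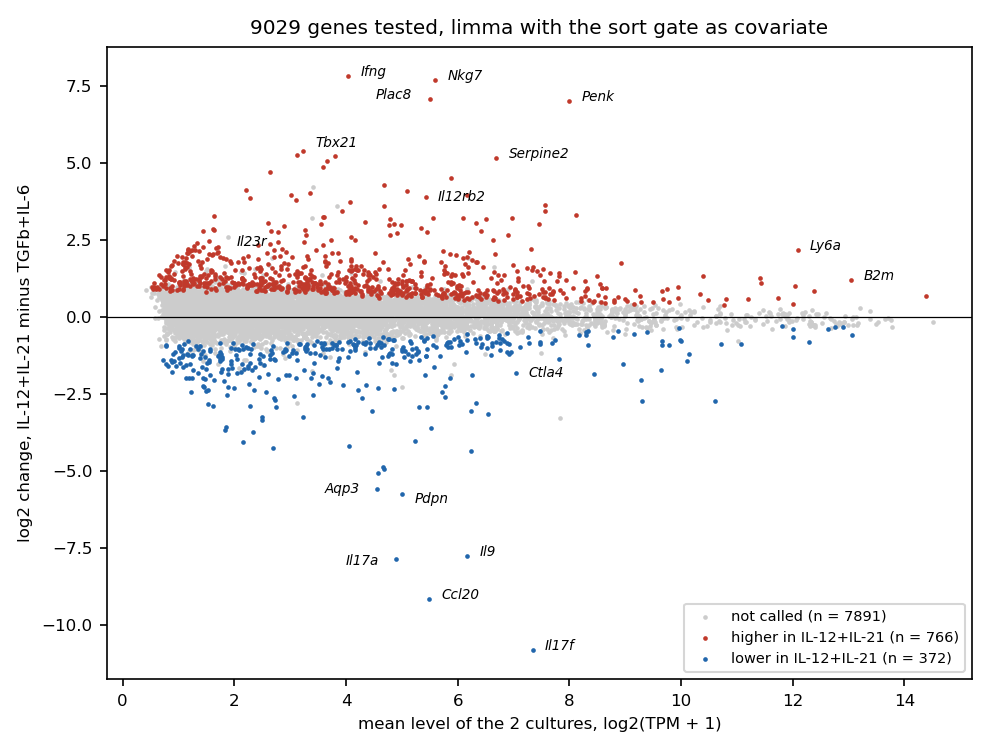
Log2 change (IL-12+IL-21 minus TGFb+IL-6, vertical axis) against the mean level of the 2 cultures (log2(TPM + 1), horizontal axis) for 9029 genes. Red points are the 766 genes called higher in IL-12+IL-21, blue points the 372 called lower and grey points the genes that were not called; Il17f lies lowest at -10.83, and the height of Ifng, which was listed at 0 in every TGFb+IL-6 library, depends on the pseudocount.

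Genes of the Th1 program rose. Of 22 tested members 16 were higher and 3 lower (Ctsw, Ifngr1 and Txk), with a median log2 change of 2.33 against 0.15 over all genes. Ifng, which encodes interferon gamma, had 450, 233, 300, 231 and 131 TPM across the IL-12+IL-21 libraries and was listed at 0 in all 3 TGFb+IL-6 libraries (adjusted p = 2.61e-10). The groups did not overlap, and with TGFb+IL-6 at 0 no fold is given. Nkg7, a membrane protein of cytotoxic granules on chromosome 7 (43437073 to 43438249, plus strand, GRCm38, GENCODE M21), was at 874, 691, 1019, 619 and 420 TPM against 4.75, 0.61 and 1.35 TPM. This was a log2 change of 7.68 ± 0.23 (SE, adjusted p = 5.81e-11), with every IL-12+IL-21 library above every TGFb+IL-6 library. Tbx21, the gene of T-bet, was at 54.0, 42.8, 121, 32.9 and 70.8 TPM against 0.83, 0.16 and 0 TPM, again with no overlap (log2 change 5.37 ± 0.34, adjusted p = 1.10e-07).

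The receptor side of the Th1 program moved the same way. Il12rb2, the signalling chain of the IL-12 receptor, was at 187, 162, 185, 184 and 116 TPM against 15.5, 4.74 and 9.82 TPM (log2 change 3.88 ± 0.25, adjusted p = 1.23e-07). Il18r1, a chain of the IL-18 receptor, was at 18.5, 13.9, 27.6, 13.2 and 8.48 TPM against 2.98, 1.74 and 0.54 TPM (log2 change 2.43 ± 0.30). Neither gene's libraries overlapped between the cultures. Stat4, which carries the IL-12 signal, rose by a log2 change of 1.44 ± 0.25 (adjusted p = 0.0014) and Irf1, an interferon-induced transcription factor, by 2.72 ± 0.20 (adjusted p = 3.72e-07). The chain pair of the interferon gamma receptor moved the other way, since Ifngr2 was at 5.62, 4.15, 5.06, 5.26 and 6.34 TPM against 33.1, 24.8 and 21.7 TPM (log2 change -2.13 ± 0.24, adjusted p = 3.30e-05) and Ifngr1 fell by 0.85 ± 0.17 on the log2 scale (adjusted p = 0.00459).

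Other large rises lay outside the Th1 list. Penk, which encodes the opioid precursor proenkephalin, was at 3437, 2338, 4460, 2751 and 1742 TPM against 41.9, 11.4 and 9.63 TPM (log2 change 7.01 ± 0.27, adjusted p = 5.67e-10), with no overlap. Plac8, a small cysteine-rich protein of lymphoid and myeloid cells, had means of 513 ± 146 TPM (SD, n = 5) and 3.04 ± 1.12 TPM (SD, n = 3). Serpine2 and Serpinb9, inhibitors of serine proteases of which the latter blocks granzyme B, rose by 5.15 ± 0.29 and 5.22 ± 0.21 on the log2 scale.

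**Figure D2:**
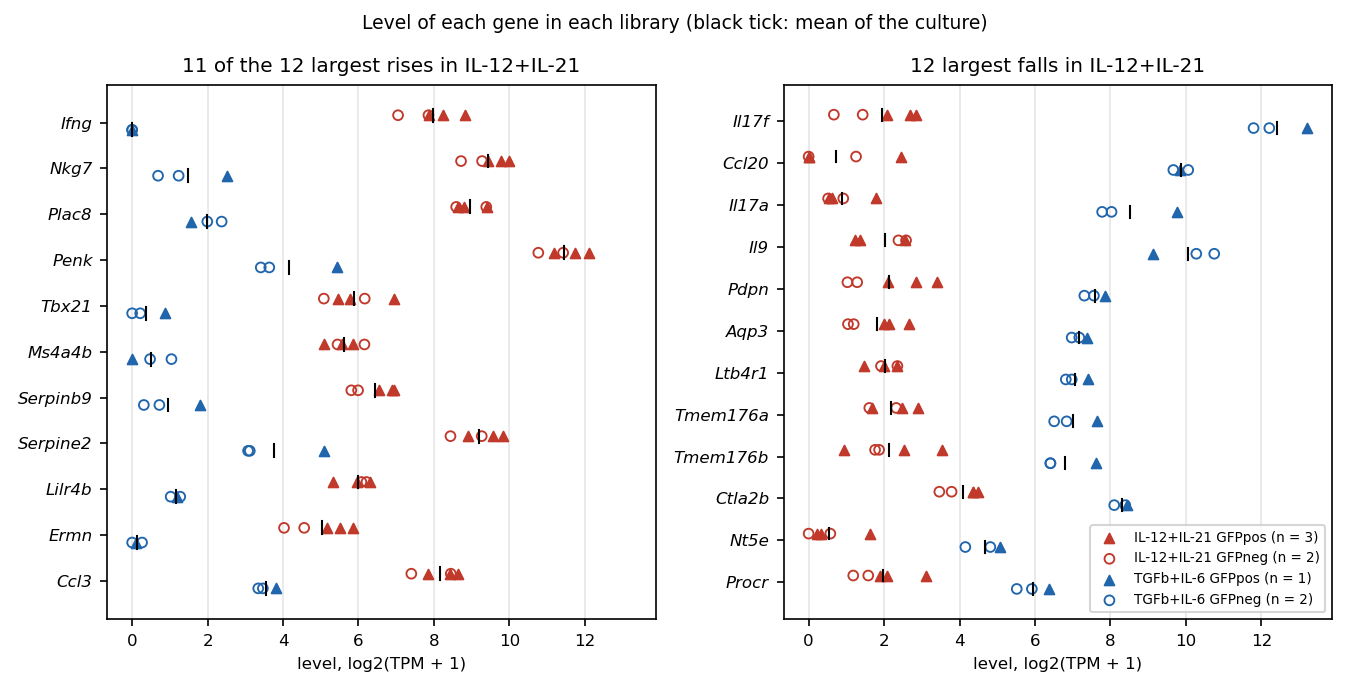
Level of 11 of the 12 largest rises (left) and of the 12 largest falls (right) among the genes named by the selection rule, as log2(TPM + 1) on the horizontal axis, with 1 point per library (triangles GFPpos, circles GFPneg, red IL-12+IL-21, blue TGFb+IL-6) and a black tick at the mean of each culture. The cultures do not overlap in any of the 23 genes drawn, because the selection rule required it.

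Genes of the Th17 program mostly fell. Of 23 tested members 13 were lower and 2 higher, Il23r and Smox, with a median log2 change of -1.41. Il17f was at 5.44, 3.24, 6.19, 1.70 and 0.59 TPM against 9497, 4744 and 3552 TPM, a log2 change of -10.83 ± 0.23 (adjusted p = 1.38e-12). Il17a was at 0.46, 0.54, 2.47, 0.43 and 0.89 TPM against 876, 219 and 260 TPM (log2 change -7.87 ± 0.36, adjusted p = 3.80e-09). For both cytokines the GFPpos library of TGFb+IL-6 was the highest of the 8. Ccr6, a chemokine receptor of Th17 cells, fell by 2.22 ± 0.23 and Maf, a factor that supports IL-10 and IL-21 production, by 2.44 ± 0.33 on the log2 scale, both without overlap. Rora, a nuclear receptor of Th17 cells, fell by 1.41 ± 0.26 on the log2 scale (adjusted p = 0.00215), but without the TGFb+IL-6 GFPpos library its adjusted p was 0.0712. Il21 was not called, with 70.5, 47.3, 68.1, 52.2 and 43.7 TPM against 62.8, 68.1 and 58.1 TPM (adjusted p = 0.463). Il22, Stat3 and Hif1a were not called either. Csf2, the gene of GM-CSF, was listed at 0 in every library of the series, so its row does not tell the cultures apart.

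The promoter windows of Il17f and Il17a, the Th17 cytokine genes that fell most, are shown from 250 bases before to 50 bases after the gene start (RefSeq, GRCm38.p6), 5′ to 3′ on the gene's strand. Capitals mark each match to AGGTCA, a half-site bound by many nuclear receptors, on either strand.
Il17a (chr1:20730655-20730954, plus strand): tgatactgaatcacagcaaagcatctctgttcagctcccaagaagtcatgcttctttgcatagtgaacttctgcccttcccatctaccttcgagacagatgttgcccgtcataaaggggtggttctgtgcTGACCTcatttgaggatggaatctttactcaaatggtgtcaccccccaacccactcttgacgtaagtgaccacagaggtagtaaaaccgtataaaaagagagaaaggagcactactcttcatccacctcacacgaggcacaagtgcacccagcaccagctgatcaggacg
Il17f (chr1:20784221-20784520, minus strand): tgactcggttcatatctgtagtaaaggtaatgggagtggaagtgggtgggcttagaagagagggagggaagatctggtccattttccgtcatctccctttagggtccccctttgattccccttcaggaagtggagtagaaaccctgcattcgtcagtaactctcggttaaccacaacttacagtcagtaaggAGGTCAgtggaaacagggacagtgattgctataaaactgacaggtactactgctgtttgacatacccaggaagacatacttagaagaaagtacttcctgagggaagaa
Each window held 1 match. AGGTCA was in 16.3% of all 32851 promoter windows, in 12.9% of those of the genes tested and in 16% of those of the genes that fell. These shares were not tested against each other, so the match is a description of these letters and no more. The T-box core GGTGTGA was in 3.98% of all windows, in 3.3% of those of the genes tested and in 4.25% of those of the genes that rose. The window of Ifng held none.

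The TGF-b pathway itself and the genes that respond to it were examined next. Of 12 tested ligand, receptor and SMAD genes none rose and 3 fell (25%, against 4.12% of all genes tested), with a median log2 change of -0.04. These were Fkbp1a, which binds the type I receptor, Skil, a feedback inhibitor of SMAD proteins, and Smad3, a SMAD that carries the signal. Fkbp1a was at 580, 524, 615, 621 and 573 TPM against 1160, 1068 and 1107 TPM (log2 change -0.93 ± 0.12, adjusted p = 8.89e-05), with narrow groups that did not overlap. Skil was at 14.4, 13.7, 14.4, 10.9 and 9.28 TPM against 23.7, 20.9 and 24.4 TPM (log2 change -0.93 ± 0.21, adjusted p = 0.0085). Smad3 was low and its groups overlapped (adjusted p = 0.0155), and it was no longer called without TGFb+IL-6 GFPpos replicate 1 (adjusted p = 0.154) or without TGFb+IL-6 GFPneg replicate 1 (adjusted p = 0.0669). Smad7 was below the filter, at no more than 1.62 TPM in any of the 8 libraries.

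Of 19 tested TGF-b response genes 10 fell and 3 rose, with a median log2 change of -0.78. Tgfbi, a matrix protein named for its induction by TGF-b, was listed at 0 in 4 of the 5 IL-12+IL-21 libraries and at 0.23 TPM in GFPpos replicate 3, against 35.8, 9.87 and 7.58 TPM (adjusted p = 2.11e-06). Nt5e, the ectonucleotidase CD73 on chromosome 9 (88327197 to 88372092, plus strand), was at 0.26, 0.16, 2.07, 0.49 and 0 TPM against 32.4, 27.2 and 16.8 TPM (log2 change -4.26 ± 0.35, adjusted p = 1.42e-06). Ccr8, a chemokine receptor, fell by 2.19 ± 0.33 on the log2 scale. These members were without overlap between the cultures. The 3 members that rose were Penk, Id3 and Cd9. Id3, an inhibitor of E proteins, was at 43.1, 47.9, 51.5, 44.2 and 44.6 TPM against 11.6, 13.8 and 12.7 TPM (log2 change 1.79 ± 0.18, adjusted p = 1.31e-05).

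Several other genes stood high in TGFb+IL-6, of which Ccl20, Ltb4r1, Tmem176a and Tmem176b are among the 13 members of the Th17 list that fell. Ccl20, the ligand of Ccr6, was at 0, 0, 4.41, 1.39 and 0 TPM against 926, 813 and 1068 TPM (log2 change -9.15 ± 0.49, adjusted p = 1.76e-08). Il9, a mast cell and T cell growth factor, was at 1.33, 1.55, 4.83, 4.99 and 4.21 TPM against 557, 1240 and 1723 TPM, and here the GFPneg libraries were the higher ones (log2 change -7.77 ± 0.29, adjusted p = 5.55e-10). Pdpn, the mucin-like glycoprotein podoplanin, was at 6.20, 3.30, 9.58, 1.04 and 1.44 TPM against 232, 188 and 158 TPM (log2 change -5.76 ± 0.32). None of these 3 genes overlapped between the cultures, as the naming rule required. Aqp3, a channel for water and glycerol, fell by 5.59 ± 0.26, the leukotriene B4 receptor gene Ltb4r1 by 5.07 ± 0.26, and Procr, the endothelial protein C receptor, by 4.19 ± 0.30 on the log2 scale. Tmem176a and its neighbour Tmem176b, ion channel genes whose annotations overlap on chromosome 6 and whose separate values are therefore uncertain, fell by 4.96 ± 0.30 and 4.89 ± 0.44.

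Levels in the other cultures of the series, which were not tested against these, are given for comparison. In the 8 libraries of IL-12 alone and of IL-1b+IL-6+IL-23 with at least 7000 genes, Ccl20 reached no more than 3.68 TPM, Il9 21.9 TPM, Pdpn 4.92 TPM, Aqp3 1.86 TPM, Nt5e 2.90 TPM and Tgfbi 0.25 TPM. The IL-17 genes differed from these in the culture given IL-1b, IL-6 and IL-23. Its GFPneg libraries had Il17f at 1775 to 2233 TPM and Il17a at 81.6 to 142 TPM. Its GFPpos libraries had Il17f at 6082 to 9681 TPM and Il17a at 615 to 1199 TPM.

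Of 9 tested chemokine genes 5 were higher, 1, Ccl20, was lower and 3 were not called, with a median log2 change of 2.03. Ccl3, an attractant of macrophages and T cells, was at 344, 228, 396, 348 and 168 TPM against 13.1, 10.1 and 9.15 TPM (log2 change 4.50 ± 0.24, adjusted p = 1.79e-08). Its neighbour and close relative Ccl4 was at 237, 217, 270, 298 and 161 TPM against 35.7, 48.9 and 36.9 TPM (log2 change 2.50 ± 0.21). Both genes were without overlap. Ccl5 rose by 3.16 ± 0.28 and Cxcl10, a ligand of Cxcr3, by 2.82 ± 0.26 on the log2 scale.

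Of 16 tested chemokine receptor genes 7 rose and 5 fell (43.8% and 31.2%, against 8.48% and 4.12% of all genes tested). Cxcr3, a receptor of Th1 cells, rose by 1.95 ± 0.31 on the log2 scale. Gpr15, a colon homing receptor, was at 0, 0, 0.91, 1.14 and 0 TPM against 17.9, 18.5 and 15.3 TPM (log2 change -3.75 ± 0.33, adjusted p = 2.70e-06), without overlap. Ccr4 fell by 2.04 ± 0.28 on the log2 scale. Ccr7, the lymph node homing receptor, was at 2217, 1618, 2241, 2509 and 1892 TPM against 773, 837 and 969 TPM (log2 change 1.32 ± 0.14, adjusted p = 2.13e-05), and together with Lef1 it was among the 10 of 20 naive and central memory genes that rose, while Igfbp4 and Rgs10 fell. Of 25 integrin and adhesion genes 11 rose (44%, against 8.48% of all genes tested) and 1 fell (4%, near the 4.12% of all genes tested).

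Among cytokine receptors 8 of 25 rose and 6 fell (32% and 24%, against 8.48% and 4.12% of all genes tested). Il21r, the receptor of the IL-21 given to the Th1-favouring culture, was at 336, 265, 343, 332 and 199 TPM against 156, 79.7 and 85.5 TPM (log2 change 1.36 ± 0.20, adjusted p = 0.000328), with no overlap. Il23r, the reporter locus and so tied to the sort, had 31.8, 24.2 and 36.4 TPM in the GFPpos libraries of IL-12+IL-21 and 3.04 and 6.36 TPM in its GFPneg libraries, against 3.57 TPM in TGFb+IL-6 GFPpos and 0.87 and 0.73 TPM in GFPneg. With the gate as covariate its log2 change was 2.11 ± 0.31 (adjusted p = 0.000405), although the groups overlapped across gates. Among GFPneg libraries alone the change was 1.60 with an adjusted p of 0.0642. In the STAT3 and STAT4 signalling chain 8 of 28 genes rose, among them Stat2, Stat4 and Stat5a, and 3 fell, Il27ra, Il6ra and Socs2. The shares were 28.6% higher and 10.7% lower, against 8.48% and 4.12% of all genes tested. Il27ra passed narrowly (adjusted p = 0.0499). Il6ra, at 0.25 to 1.35 TPM against 1.86 to 2.61 TPM, lost its call in 4 of the 8 fits that leave out 1 library (adjusted p = 0.0818 without TGFb+IL-6 GFPpos replicate 1, 0.0707 without TGFb+IL-6 GFPneg replicate 1, 0.0641 without TGFb+IL-6 GFPneg replicate 2 and 0.081 without IL-12+IL-21 GFPneg replicate 2).

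Lists named for T helper subsets other than Th1 moved in both directions. The pathogenic Th17 signature had 12 of 15 members higher and none lower (median log2 change 1.81), although with median-ratio scaling 12 were higher and 1 lower. Those that rose included Tbx21, Stat4, Ccl3, Ccl4 and Ccl5, which also stand in the Th1 list, and Gzmb, Lag3, Il3 and Casp1. All 5 tested members of the non-pathogenic signature (Il9, Il1rn, Maf, Il10 and Ikzf3) fell (median log2 change -2.28). Il10 was low, at 0, 1.43, 0.89, 0.75 and 0.78 TPM against 4.86, 1.69 and 2.26 TPM (log2 change -1.21 ± 0.34, adjusted p = 0.0313). It was no longer called without TGFb+IL-6 GFPpos replicate 1 (adjusted p = 0.341) or without TGFb+IL-6 GFPneg replicate 2 (adjusted p = 0.0609), and Ikzf3 was not called without the former (adjusted p = 0.141). Of 16 regulatory T cell genes 9 fell and 1, Tnfrsf18, rose, although with median-ratio scaling 10 fell and none rose. Foxp3, the lineage factor of regulatory T cells, reached no more than 1.77 TPM in any of the 8 libraries and was not called (adjusted p = 0.24). Gata3, the Th2 factor, was at 2.63, 1.23, 2.18, 3.70 and 4.61 TPM against 0.98, 0.75 and 0.42 TPM (log2 change 1.22 ± 0.31, adjusted p = 0.0174). Its adjusted p was 0.052 without TGFb+IL-6 GFPneg replicate 1, 0.0733 without TGFb+IL-6 GFPneg replicate 2 and 0.0664 without IL-12+IL-21 GFPneg replicate 2.

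**Figure D3:**
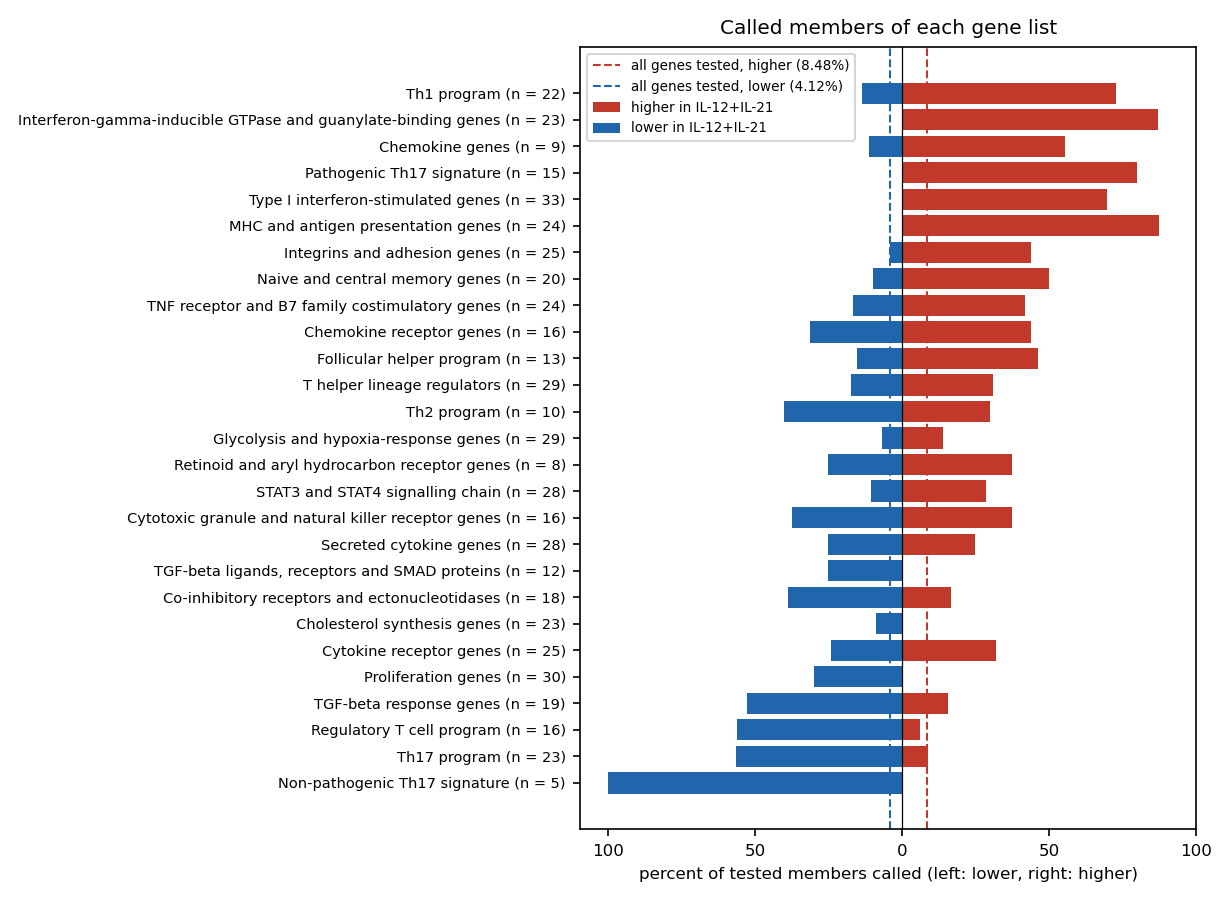
Percent of the tested members of each gene list that were called higher (red, to the right) or lower (blue, to the left) in IL-12+IL-21, with the number tested in brackets and dashed lines at the shares among all genes tested, 8.48% higher and 4.12% lower. The Th1 list had 72.7% of its members higher, and the Th17 list 56.5% lower; lists share some genes.

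The cytotoxic granule and natural killer receptor list had 6 of 16 members higher and 6 lower. Gzmb, which encodes granzyme B, was at 8.72, 7.58, 10.3, 47.0 and 18.2 TPM against 0, 0.31 and 0 TPM (log2 change 4.12 ± 0.37, adjusted p = 2.77e-06), and both GFPneg libraries of IL-12+IL-21 lay above the 3 GFPpos libraries. Serpinb6b, a granzyme inhibitor, was at 141, 125, 113, 101 and 95.5 TPM against 5.61, 5.20 and 3.27 TPM (log2 change 4.27 ± 0.19, adjusted p = 3.34e-09). Ctla2a and Ctla2b, near-identical protease inhibitor genes whose separate values are uncertain, went the other way. Ctla2a was at 251, 341, 303, 149 and 229 TPM against 1441, 1534 and 1657 TPM (log2 change -2.75 ± 0.19), and Ctla2b fell by 4.37 ± 0.19 on the log2 scale. The natural killer receptor gene Klrd1 was at 1.19 to 3.02 TPM in IL-12+IL-21 and at 8.02 to 11.7 TPM in TGFb+IL-6, and 5 of the 10 natural killer cell markers were listed at 0 in all 8 libraries.

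Inhibitory and costimulatory receptors also divided. Lag3, an inhibitory receptor for MHC class II, was at 117, 87.7, 83.7, 75.2 and 54.2 TPM against 15.6, 6.62 and 4.41 TPM (log2 change 2.99 ± 0.24, adjusted p = 8.73e-07). Ctla4, the inhibitory receptor for CD80 and CD86, was at 99.2, 81.2, 93.3, 49.6 and 50.1 TPM against 299, 205 and 181 TPM (log2 change -1.84 ± 0.15, adjusted p = 1.50e-06). In both genes the cultures did not overlap, and in both the GFPpos library of TGFb+IL-6 was the highest of its culture. Cd40lg, the helper ligand for CD40, rose by 2.75 ± 0.23 and the death receptor Fas by 1.96 ± 0.21 on the log2 scale, while Cd86 fell by 2.55 ± 0.28. Of 24 TNF receptor and B7 family genes 10 rose and 4 fell, and of 18 co-inhibitory receptors and ectonucleotidases 3 rose and 7 fell.

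Interferon-inducible genes rose broadly. Among GTPase and guanylate-binding genes induced by interferon gamma, which act in defence against intracellular microbes, 20 of 23 tested members were higher and none lower, with a median log2 change of 2.25. Igtp was at 559, 456, 510, 553 and 443 TPM against 67.6, 47.1 and 66.8 TPM (log2 change 3.02 ± 0.16, adjusted p = 1.78e-08). Gbp2 was at 242, 203, 271, 230 and 192 TPM against 32.8, 29.0 and 31.3 TPM (log2 change 2.78 ± 0.16, adjusted p = 3.39e-08). Within each culture these genes varied little, and the cultures were far apart in both. Among genes better known for type I interferon 23 of 33 were higher and none lower, with a median log2 change of 1.12. Isg15, a ubiquitin-like modifier, was at 70.6, 64.3, 71.8, 78.1 and 90.2 TPM against 12.2, 5.99 and 8.21 TPM (log2 change 2.98 ± 0.23, adjusted p = 6.21e-07). Ifitm3, a membrane protein that restricts viral entry, was at 830, 828, 749, 457 and 400 TPM against 109, 12.3 and 39.7 TPM (log2 change 3.63 ± 0.32, adjusted p = 2.61e-06), and in both cultures its GFPpos libraries lay above its GFPneg libraries. Many members are close copies of each other, such as Tgtp1 with Tgtp2 and the Gbp genes, and reads may have been split between them.

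The promoter windows of 4 of these genes are shown to make visible the motifs counted over the 2 lists. Capitals mark matches, on either strand, to the STAT element TTCNNNGAA or to the interferon response element, which is GAAANN followed by GAAA and was added after the values were seen, with overlapping matches run together (RefSeq, GRCm38.p6).
Igtp (chr11:58199306-58199605, plus strand): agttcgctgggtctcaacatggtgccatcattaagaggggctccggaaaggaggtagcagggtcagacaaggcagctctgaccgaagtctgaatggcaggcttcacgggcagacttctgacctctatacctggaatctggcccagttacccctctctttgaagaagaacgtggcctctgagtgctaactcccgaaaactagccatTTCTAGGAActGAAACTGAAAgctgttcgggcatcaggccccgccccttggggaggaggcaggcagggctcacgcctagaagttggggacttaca
Irf1, first of its windows (chr11:53769764-53770063, plus strand): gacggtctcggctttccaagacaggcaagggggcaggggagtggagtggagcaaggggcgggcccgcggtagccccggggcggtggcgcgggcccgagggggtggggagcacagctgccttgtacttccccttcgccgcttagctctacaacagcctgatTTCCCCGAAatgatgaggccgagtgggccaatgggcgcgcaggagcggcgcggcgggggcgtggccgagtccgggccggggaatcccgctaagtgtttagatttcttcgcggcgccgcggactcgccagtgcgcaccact
Gbp2 (chr3:142620413-142620712, plus strand): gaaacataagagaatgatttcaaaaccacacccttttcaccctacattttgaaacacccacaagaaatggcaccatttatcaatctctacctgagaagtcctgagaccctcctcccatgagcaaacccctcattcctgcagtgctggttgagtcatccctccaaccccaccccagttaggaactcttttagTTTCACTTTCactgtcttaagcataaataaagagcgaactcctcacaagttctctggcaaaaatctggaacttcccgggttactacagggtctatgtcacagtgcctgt
Isg15 (chr4:156200769-156201068, minus strand): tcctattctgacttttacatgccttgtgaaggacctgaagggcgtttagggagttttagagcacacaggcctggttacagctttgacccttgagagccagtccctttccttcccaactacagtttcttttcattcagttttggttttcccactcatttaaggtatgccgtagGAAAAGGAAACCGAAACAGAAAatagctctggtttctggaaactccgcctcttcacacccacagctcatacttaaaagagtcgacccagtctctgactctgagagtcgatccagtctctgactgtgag
Igtp held a match to each motif, Irf1 the STAT element alone, Gbp2 the interferon response element alone, and Isg15 3 overlapping matches to the latter. Of the 20 called GTPase-list genes 10 had a window in the RefSeq table. Of these genes 7 held TTCNNNGAA and 8 held the interferon response element, against 9.55% and 3.99% of all genes with a window. Among the genes tested that had a window the shares were 8.47% and 3.91%. Of the 23 called genes of the type I list 17 had a window, of which 3 held TTCNNNGAA and 11 held the interferon response element. Counted by window, the interferon response element was in 3.44% of all windows and in 3.21% of those of the genes tested. It was in 8.11% of those of all genes that rose and in 3.5% of those of all genes that fell. These matches say nothing of binding.

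**Figure D4:**
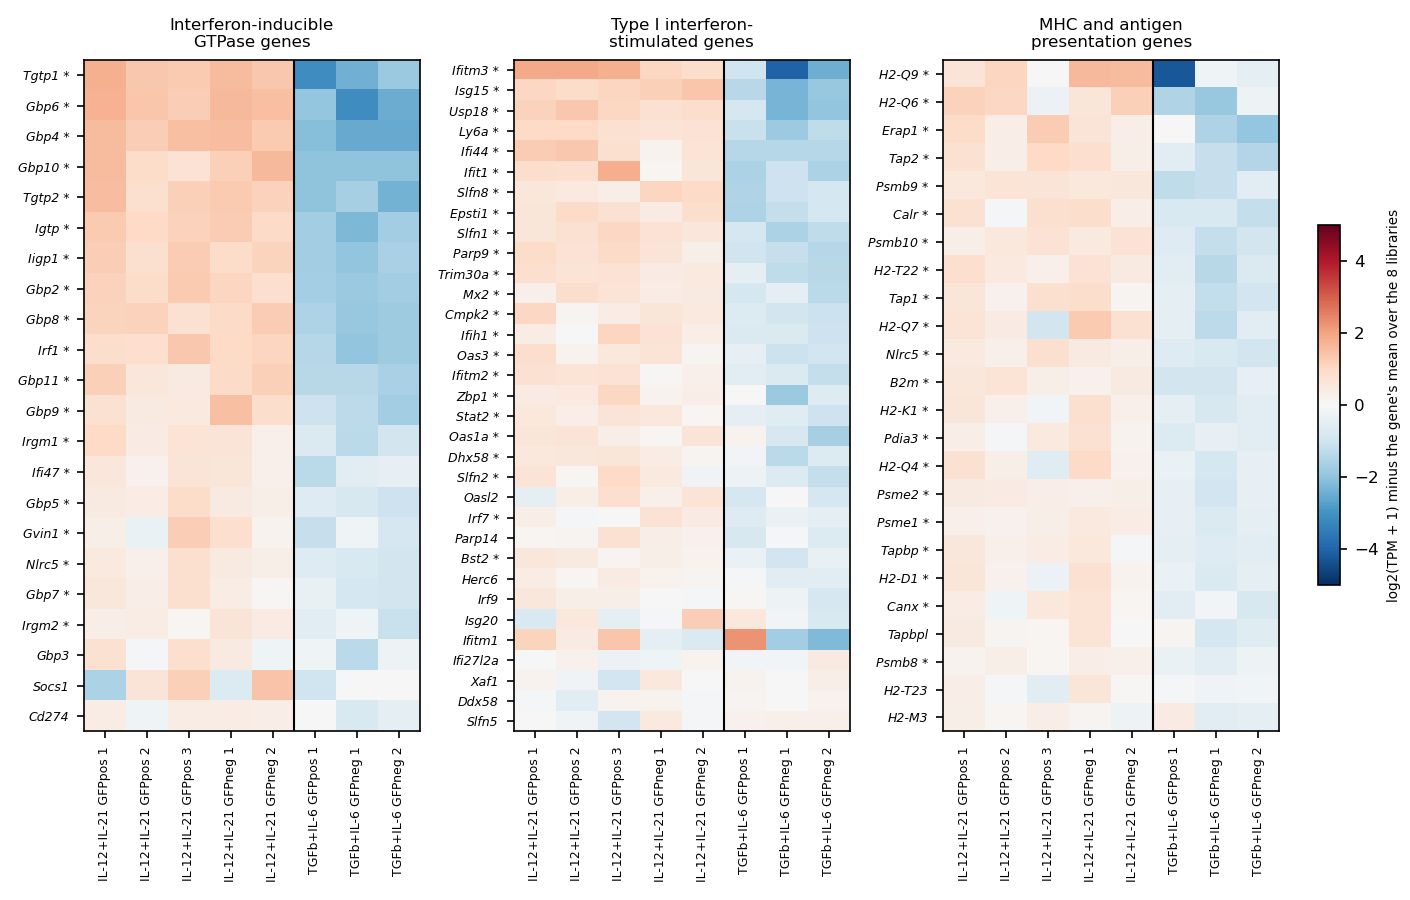
Level of the genes of 3 lists in each of the 8 libraries, as log2(TPM + 1) minus the gene's mean over the 8 libraries (colour scale), with genes in rows ordered by their log2 change, IL-12+IL-21 libraries left and TGFb+IL-6 libraries right of the line, and asterisks at called genes. The left panel draws 22 of the 23 tested genes, 19 of them called, the middle panel holds 23 called of 33 and the right panel 21 of 24; the TGFb+IL-6 GFPpos library stands above the others of its culture for Ifitm1, which was not called.

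MHC class I and antigen presentation genes were higher as well, with 21 of 24 called and none lower (median log2 change 1.10). With median-ratio scaling, which subtracts the shift of the median gene, 14 were called. B2m, the light chain of MHC class I, was at 13581, 14936, 11358, 10836 and 12715 TPM against 4892, 4939 and 6865 TPM (log2 change 1.19 ± 0.14, adjusted p = 3.74e-05, and 0.0557 with median-ratio scaling). Psmb9, an immunoproteasome subunit, was at 247, 270, 262, 242 and 251 TPM against 70.4, 75.9 and 116 TPM (log2 change 1.59 ± 0.17, adjusted p = 2.24e-05), and Tap2, a chain of the peptide transporter, rose by 1.62 ± 0.22 on the log2 scale. H2-K1 and H2-D1, the classical heavy chains, lost their calls under median-ratio scaling (adjusted p = 0.0939 for H2-K1 and 0.216 for H2-D1), and reads of the H2 genes may be shared between them. Cd74, the MHC class II invariant chain, was at 256 to 625 TPM in IL-12+IL-21 and at 23.4 to 64.4 TPM in TGFb+IL-6, and it was called higher (log2 change 3.19, adjusted p = 1.52e-05). Cd74 also marks B cells and dendritic cells. Of 20 myeloid and dendritic cell markers 12 were listed at 0 in all 8 libraries and 16 never reached 1 TPM, and the summed markers, nearly all of them Cd74, were at 263 to 629 TPM against 33.1 to 69.1 TPM. Of 10 B cell markers 8 never reached 1 TPM, with sums of 7.95 to 18.0 TPM against 0.91 to 5.00 TPM, most of it Ebf1. Ebf1 was at 5.01 to 16.1 TPM in IL-12+IL-21 and at 0.55 to 4.61 TPM in TGFb+IL-6, and it was called higher (log2 change 1.38, adjusted p = 0.006). The part of other cell types in these differences was not tested beyond these values.

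Of 30 tested proliferation genes 9 fell, 21 were not called and none rose (median log2 change -0.58), and with median-ratio scaling 22 fell. Without that scaling the share that fell was 30%, against 4.12% of all genes tested. Mcm6, a replication helicase subunit, was at 43.8, 42.7, 56.5, 91.2 and 69.3 TPM against 104, 168 and 142 TPM (log2 change -1.02 ± 0.18, adjusted p = 0.00135). Birc5, the mitotic protein survivin, was at 47.8, 47.8, 51.3, 70.2 and 65.0 TPM against 91.2, 133 and 152 TPM (log2 change -0.99 ± 0.16, adjusted p = 0.000697). In each culture both genes were higher in GFPneg than in GFPpos libraries, and the cultures did not overlap. With all 12 libraries of both cultures the change was 1.04 in Mcm6 and 0.46 in Birc5, neither of them called.

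The metabolic lists are set beside the share over all genes tested, 12.6% called (8.48% higher and 4.12% lower). Of 29 glycolysis and hypoxia-response genes 4 rose and 2 fell (20.7% called), and with median-ratio scaling 2 rose and 4 fell. The called genes included Hk2, the first enzyme of glycolysis, which rose by 1.50 ± 0.22 on the log2 scale. Egln3, an oxygen sensor, fell by 1.88 ± 0.20. Of 23 cholesterol synthesis genes none rose and 2 fell (8.7% called). These were Fdps and Mvd, and neither was called without IL-12+IL-21 GFPpos replicate 1 (adjusted p = 0.076 and 0.0563); each lost its call in 5 of the 8 fits that leave out 1 library. Of 8 retinoid and aryl hydrocarbon receptor genes 3 rose and 2 fell (62.5% called). Stra6, a retinol transporter of the cell membrane, was at 66.4, 40.5, 109, 53.5 and 39.2 TPM against 2.29, 3.85 and 4.23 TPM (log2 change 3.71 ± 0.32, adjusted p = 2.26e-06). Crabp2, which carries retinoic acid to the nucleus, was at 1201, 1144, 1038, 662 and 508 TPM against 164, 37.7 and 51.1 TPM (log2 change 3.30 ± 0.19, adjusted p = 3.95e-08). Both were without overlap.

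Whether the culture difference depended on the sort gate was tested as an interaction over the same 8 libraries. The TGFb+IL-6 GFPpos arm is 1 library, which was assumed to vary like the other 3 groups. It passed for 5 of 9029 genes (0.0554%), with 338 at an unadjusted p under 0.05. These were H2-Q9, Hspa1a, Hist1h2bk and the rows TRNT and TRNE, all of which rest on the only TGFb+IL-6 GFPpos library. H2-Q9, a nonclassical MHC class I gene, was at 128, 176, 82.8, 258 and 247 TPM against 3.45, 71.2 and 60.2 TPM, so its culture difference was 4.80 ± 0.34 in GFPpos and 1.93 ± 0.30 in GFPneg on the log2 scale (adjusted p = 0.0336). Ifng, Nkg7, Tbx21, Il17a and Il17f did not pass. For Il17a the difference was -8.79 ± 0.47 in GFPpos and -7.19 ± 0.40 in GFPneg, and for Tbx21 it was 5.18 ± 0.53 and 5.52 ± 0.46 (interaction adjusted p = 0.999 for each). The number that passed was 0 without IL-12+IL-21 GFPpos replicate 2, 9 without TGFb+IL-6 GFPneg replicate 2 and 14 without IL-12+IL-21 GFPneg replicate 2.

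A comparison that shares no library with the first set IL-12 alone (2 GFPneg libraries) against IL-1b+IL-6+IL-23 (3 GFPneg libraries), an IL-12 culture against an IL-6 culture without TGF-b. It called 399 of 8774 genes (4.55%), 241 higher in IL-12 (2.75%) and 158 lower (1.8%). The count was 181 without IL-12 GFPneg replicate 2, 142 without IL-12 GFPneg replicate 3, 206 without IL-1b+IL-6+IL-23 GFPneg replicate 2 and 178 without replicate 3 of that group, and 6 when the sparse IL-12 GFPneg replicate 1 was kept. Of the genes tested in both, 96 were higher in both, which is 12.9% of the first comparison's rises and 41.4% of the second's. Another 37 were lower in both (12% and 24.5%), and 60 were called in opposite directions. Of 1055 genes called in the first comparison 64.5% had the same sign in the second, against 57.7% of all 8461 genes tested in both.

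Of 21 Th1 genes tested in both comparisons 11 were higher in both and 2 were called in opposite directions. The latter were Ctsw, at -2.63 ± 0.32 in the first and 1.99 ± 0.42 in the second, and Ifngr1, at -0.85 ± 0.17 and 2.06 ± 0.30. Nkg7 rose by 7.17 ± 0.51 in the second comparison against 7.68 ± 0.23 in the first, and Tbx21 by 4.80 ± 0.48 against 5.37 ± 0.34. Among Th17 genes 6 of 19 were lower in both, among them Ccr6, Il17a, Il17f, Il1rn and Rora. Another 2, Il23r and Smox, were called in opposite directions, with Smox at 1.67 in the first and -2.70 ± 0.29 in the second. Il17f fell by 7.01 ± 0.32 in the second comparison and Il17a by 5.16 ± 0.29. Ccl20 did not follow them, with a change of 0.54 ± 0.62 (adjusted p = 0.693).

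The interferon lists parted in the second comparison. Of the GTPase list 6 members were higher in both comparisons (Gbp10, Gbp2, Gbp6, Igtp, Iigp1 and Irf1) and none was opposite. Igtp rose by 1.87 ± 0.17 in the second comparison (adjusted p = 0.000612) and Gbp2 by 1.53 ± 0.22 (adjusted p = 0.00593). Of the 33 type I genes 12 were lower in IL-12 and 2 higher, and 9 were called in opposite directions (Bst2, Dhx58, Ifit1, Irf7, Isg15, Oas1a, Oas3, Slfn1 and Slfn8). Isg15 fell by 2.85 ± 0.26 (adjusted p = 0.000629) and Irf7, a factor that amplifies the type I response, by 3.35 ± 0.41 (adjusted p = 0.00272), where they had risen by 2.98 ± 0.23 and 0.87 ± 0.23 in the first. Ifitm2 and Ifitm3 were higher in both. Of 30 proliferation genes 9 were higher in IL-12 and none lower in the second comparison (median log2 change 1.10), where 9 had fallen and none risen in the first. The genes called in both, in opposite directions, were Ccnb2, Cdc20 and Tk1. Cdc20, a mitotic activator, was at -1.02 in the first and 1.59 ± 0.22 in the second, and its first call was lost without TGFb+IL-6 GFPpos replicate 1 (adjusted p = 0.164). Other genes called in opposite directions were Lum, a matrix proteoglycan, at 3.44 ± 0.27 in the first and -6.55 ± 0.24 in the second, the calcium-binding S100a6 at 3.42 ± 0.17 and -2.21 ± 0.32, Il23r at 2.11 ± 0.31 and -2.33 ± 0.42, and lymphotoxin alpha (Lta) at -0.93 ± 0.13 and 3.17 ± 0.26. These 4 were chosen after their values were seen.

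**Figure D5:**
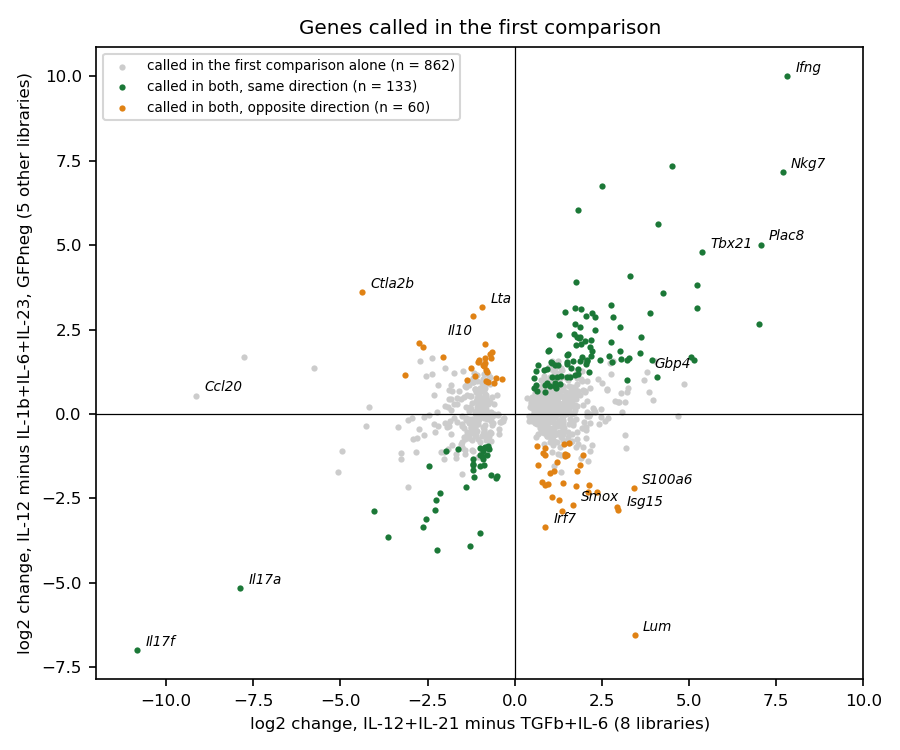
Log2 change of IL-12 alone minus IL-1b+IL-6+IL-23 in GFPneg cells (vertical axis, 5 libraries) against the log2 change of IL-12+IL-21 minus TGFb+IL-6 (horizontal axis, 8 other libraries) for the 1055 genes called in the first comparison and tested in both. Green points are the 133 genes called in both with the same direction, orange points the 60 called in opposite directions, such as Lum and Isg15, and grey points the 862 called in the first alone.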

How the data were processed

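RNA of sorted mouse CD4 T cells was measured by SMART-Seq2 with paired-end sequencing, per the labels' protocols. The authors deposited 1 table of TPM values with 23415 rows and 21 libraries, made with Trimmomatic 0.32, Bowtie2 2.2.9, RSEM 1.2.31 and GRCm38, per the submitters' processing notes. Their order, settings, annotation and use of strand are not given in the sources used here. TPM keeps no depth, so the reads behind a value are unknown and no counting interval is given. Ribosomal protein transcripts took over 36% of every library compared, and since TPM sums to a fixed total, a change in so large a share moves all other genes.

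Libraries were grouped by their titles. Values were analysed as log2(TPM + 1) with limma 3.58.1 (R 4.3.3; culture and gate as terms, trended empirical Bayes, Benjamini-Hochberg adjustment over all genes tested, threshold 0.05). Genes needed 1 TPM in at least 3 libraries, or in at least 2 for the second comparison, which was fitted apart. Exact permutation tests were two-sided. The fitting code was tested on simulated data. Alternatives covered the pseudocount, filters, scaling, gate term, replicate block and left-out libraries. Promoters are from RefSeq (GRCm38.p6) and gene positions from GENCODE M21.

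Genes were named by a rule: the 12 largest rises and 12 largest falls among called genes whose cultures did not overlap, whose log2 change was 1 or more in size and whose higher culture averaged 5 TPM or more, then the 3 most strongly called genes per list (by adjusted p), and a set of cytokine and lineage genes. Further genes were chosen after their values were seen. The comparison and all lists were chosen with earlier results of these data known. Results for some genes are not reported here, and they are not drawn or labelled in the figures.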

Additional observations from a re-analysis of the deposited data

Results flagged for a closer look

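Among 131 measures of the 5 IL-12+IL-21 libraries, 3 had a single library far from the other 4 (a gap of more than 0.71 of the group's range, which chance gives in about 5% of groups). Izumo1r was at 18.1 TPM in GFPpos replicate 3 against 7.37 to 8.57 TPM in the others. Il1rn was at 0.52 TPM in GFPneg replicate 2 against 0 to 0.11 TPM, and Tgfbi at 0.23 TPM in GFPpos replicate 3 against 0, both below 1 TPM.

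The interaction of culture and sort gate passed for 5 genes. The TGFb+IL-6 GFPpos arm is 1 library, so the spread comes from the other groups, and the count ran from 0 to 14 when 1 library was left out. On the log2 scale the difference in GFPpos minus that in GFPneg was 8.36 for TRNT (adjusted p = 6.88e-06, limma) and 7.44 for TRNE (adjusted p = 2.03e-05). TRNT was at 302, 493 and 235 TPM and TRNE at 263, 143 and 136 TPM in the IL-12+IL-21 GFPpos libraries, and both were listed at 0 in the other 5. It was 5.06 for Hist1h2bk, -3.71 for Hspa1a, a heat shock protein gene that was at 53.6 TPM in the TGFb+IL-6 GFPpos library, and 2.87 for H2-Q9.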

How the results depend on the processing

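Of 118 described genes that were called, 102 kept the call in all 8 fits that leave out 1 library. Calls in the culture comparison ranged from 554 to 1392 over those fits, with 387 to 999 higher and 167 to 396 lower. With all 12 libraries of both cultures 64 passed (51 higher, 13 lower), with TGFb+IL-6 GFPpos replicate 2 added 402 (323 and 79), with GFPneg libraries alone 460 (301 and 159) and for the GFPpos contrast within a fit of 4 group means 394 (244 and 150), which sets 3 libraries against 1 and takes the spread from the other groups. Quantile normalization gave 697 higher and 651 lower, and median-ratio scaling 617 higher and 617 lower. The interaction with the gate passed for 2 genes with a pseudocount of 0.1, 55 with no filter, 3 with quantile normalization, 3 with median-ratio scaling, and 0 to 14 with 1 library left out. The second comparison called 232 genes with no filter, 6 with IL-12 GFPneg replicate 1 kept, and 142 to 468 with 1 library left out. The main fit did not take replicate numbers as pairs. Deviations from the group mean correlated at 0.0339 to 0.168 between same-numbered libraries and at -0.168 to 0.0813 between differently numbered ones. In groups of 2 libraries these deviations mirror each other, so the correlations cannot decide whether the numbers mark pairs. With the replicate block 1674 genes passed in the culture comparison, 1109 of them shared with the fit without it, and 693 in the second comparison. The sign turned with all 12 libraries for Fkbp1a (1.12), Skil (0.61), Ctla4 (0.53), Il4ra (1.24), Birc5 (0.46), Mcm6 (1.04), Cdc20 (0.62), Egln3 (1.03), Bnip3 (0.77), Fdps (3.05), Mvk (0.54), Il21 (1.39), Rora (0.023) and Stat3 (2.35). With TGFb+IL-6 GFPpos replicate 2 added it turned for Skil (0.030), Il4ra (0.25), Mcm6 (0.26), Fdps (0.44), Mvk (0.13), Il21 (0.69), Ifngr1 (0.20) and Stat3 (0.79). Stat3 stood at 0.037 with GFPneg libraries alone, and between -0.41 and 0.037 with 1 library left out, the higher value without TGFb+IL-6 GFPpos replicate 1. Il22, which was not called, was between -0.35 and 0.30 with 1 library left out and was at -0.085 with quantile normalization, -0.041 with median-ratio scaling, -0.014 with 16 libraries fitted together, -0.24 for the GFPpos contrast, -0.25 without TGFb+IL-6 GFPneg replicate 1, -0.21 without IL-12+IL-21 GFPpos replicate 2 and -0.35 without IL-12+IL-21 GFPneg replicate 2. The cause of these shifts was not tested. The depth is unknown, which limits statements on genes near 1 TPM.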
